A study of Homo sapiens with 66 samples.

Results

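The response to combined loss of ADAR and hnRNPC was measured at its earliest sampled time, 3 d after nucleofection, in THP-1 cells, a human monocytic leukemia line. The comparison set the 3 libraries of ADAR+hnRNPC-targeted cells of day 3 against the 3 libraries of CTRL cells of the same day, 6 of the 66 libraries of the series, and used the counts on genes and on introns. ADAR (adenosine deaminase acting on RNA) converts adenosine to inosine (A-to-I editing) in double-stranded RNA (dsRNA). Unedited dsRNA can be bound by the cytosolic sensor MDA5, which signals through MAVS to type I IFN genes, and IFN in turn induces a broad set of antiviral genes. hnRNPC binds runs of uridines in nascent transcripts, including those of antisense Alu elements in introns, and competes there with the splicing factor U2AF. Alu elements are abundant repeats, and a pair in opposite orientation can fold into dsRNA.

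All cells of these groups came from 1 STING-deficient single-cell clone with a Cas9 transgene, so the clone is a shared background of treated and control cells. STING signals downstream of cytosolic DNA. Every nucleofection delivered a pair of guide RNAs (gRNAs), and cells grew in medium without added IFN. CTRL cells received the nontarget gRNA in both positions, ADAR+hnRNPC-targeted cells received an hnRNPC and an ADAR gRNA, and the singly targeted cells used below received 1 of these with the nontarget gRNA. Each group had 3 libraries of ribosomal RNA–depleted whole-cell RNA, which the study describes as independent replicates. The libraries held a mixture of edited and unedited cells, in which fewer cells with a response and a weaker response per cell cannot be told apart.

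The gRNAs are shown because their target sites define the perturbation. In the lines of the targeted sites, lower case marks the protospacer and capitals mark the PAM that follows it in GRCh37, and both protospacers lie on the plus strand. The ADAR site lies in coding exon sequence of ADAR, a gene on the minus strand, in 18 of the 27 transcripts that hold it in an exon. The hnRNPC site lies in coding exon sequence of HNRNPC, also on the minus strand, in 24 of 25 such transcripts. The nontarget gRNA had 0 exact matches in GRCh37.
Nontarget gRNA NTC1: cgttaatcgcgtataatacg
ADAR.2 site, chr1:154574128-154574146 (+): tatatctcgggccttggtaAGG
hnRNPC.2 site, chr14:21702284-21702303 (+): gagattcccaatgaatacacGGG
The hnRNPC protospacer matched 1 further place exactly, with a GGG PAM, in the exon of the processed pseudogene HNRNPCP2 (chr2:190788111-190788130, minus strand). Reads of HNRNPCP2 and HNRNPC may be exchanged because the copies are nearly identical, so the count of the pseudogene is uncertain.

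Counts on genes ranged from 110217841 to 119814283 in the CTRL libraries and from 120906503 to 124953205 in the ADAR+hnRNPC libraries. Intron counts came to 19.8 to 23.3% and 20.05 to 24.9% of these totals, with the lowest share in replicate 3 of both groups. All 12 monocyte markers had counts, and their summed level was 859.6 to 957.5 CPM (counts per 1000000 counts on genes) in CTRL and 847.6 to 999.8 CPM in ADAR+hnRNPC-targeted cells. Sums of 5 T cell, 5 erythroid, and 5 epithelial markers stayed at or under 0.969 CPM in all 6 libraries. Those of 5 B cell markers, which include PAX5, were 9.25 to 10.2 and 9.75 to 10.7 CPM, with MS4A1 at 0 in ADAR+hnRNPC-targeted cells.

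The targeted transcripts and the editing activity were examined first. HNRNPC mRNA had 770, 778, and 815 CPM in the CTRL libraries and 338, 318, and 337 CPM in the ADAR+hnRNPC libraries. The groups were far apart, and the log2 fold change was −1.25 (standard error 0.06, adjusted p = 4.2e-19). Here and below, p values of genes and introns came from edgeR (quasi-likelihood F-test) and were adjusted by the Benjamini-Hochberg method over all features tested. ADAR mRNA had 417, 418, and 436 CPM in CTRL and 355, 344, and 367 CPM in ADAR+hnRNPC-targeted cells. The groups did not overlap, but the difference was small (log2 fold change −0.25, standard error 0.08, adjusted p = 0.015) and did not reach the 2-fold limit used to call a gene. A Cas9 cut need not lower the mRNA of its target, so the activity of ADAR was read from A-to-I editing.

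Over 116801 sites with 10 or more reads in every library of the 4 gRNA groups of day 3 (12 libraries), the edited share of reads was 4.16, 4.21, and 4.79% in CTRL. In ADAR+hnRNPC-targeted cells it was 2.03, 2.01, and 2.25%. Every ADAR+hnRNPC library was below every CTRL library, and the group means were 4.38 ± 0.35% and 2.1 ± 0.132% (SD, n = 3 each). The difference of −2.29 percentage points had an exact two-sided permutation p of 0.1, the smallest that 3 against 3 libraries can give. ADAR-targeted cells had 1.83 ± 0.105% and hnRNPC-targeted cells 4.54 ± 0.235% (SD, n = 3 each). The 95% Wilson interval of the library with the fewest reads (3365476) ran from 4.77 to 4.81% and covers counting error only. Among 3705 sites with a mean editing of at least 20% in cells that received a GFP gRNA, the median level was 30.5% for CTRL and 15.2% with both gRNAs. The GFP libraries enter no comparison here. The study's site search, however, required editing in at least 1 library without ADAR targeting, CTRL libraries among them. Sites were thus admitted through libraries with intact ADAR, both here and among the 116801. Of these sites, 2198 (59.3%) were below all CTRL libraries in all ADAR+hnRNPC libraries and 25 were above. In hnRNPC-targeted cells 200 of them (5.40%) were below and 275 above all CTRL libraries, and in ADAR-targeted cells 2477 (66.9%) were below. Both groups with the ADAR gRNA had a lower edited share than both groups without it, in every library.

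**Figure D1:**
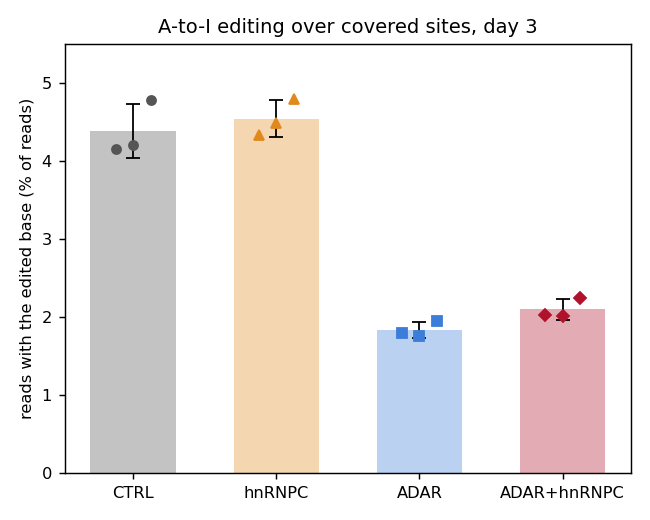
Share of reads with the edited base over 116801 A-to-I sites on day 3, in percent. Bars are group means, whiskers are SD, and each point is 1 of 3 libraries; all ADAR and ADAR+hnRNPC libraries lie at or below 2.25%, and all CTRL and hnRNPC libraries at or above 4.16%.

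Of 57820 genes, 13193 reached the minimum average log2 CPM of 0.5 and were tested. A called gene had both an adjusted p not above 0.05 and a change of 2-fold or more, that is 1 on the log2 scale. ADAR+hnRNPC targeting raised 114 genes and lowered 40, which is 1.17% of the genes tested (0.864% higher and 0.303% lower). Without the 2-fold limit, 1581 genes (12%) were higher and 2201 (16.7%) lower at this adjusted p, so most shifts on day 3 were small. The median log2 fold change of all genes tested was −0.02. The raised genes were mostly of low abundance, with a median of 1.32 CPM in CTRL against 25.7 CPM for all genes tested. The minimum was an average over all 48 libraries of the first RNA-seq experiment, days 4 and 5 included. A gene low in CTRL could thus be tested because it was high elsewhere, so this contrast is in part built in. The raised genes comprised 79 protein-coding genes, 19 lncRNAs, 12 pseudogenes, and 4 genes without a match in the annotation. Of the lowered genes, 38 were protein coding and 2 were pseudogenes, with a median of 35.1 CPM in CTRL. Levels in CPM are not corrected for transcript length.

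Several of the genes with the highest fold changes are textbook IFN-stimulated genes. CXCL11, a chemokine ligand of CXCR3, had 0 counts in each CTRL library and 15, 9, and 1 counts in the ADAR+hnRNPC libraries. It was at least 7.65-fold higher when the 3 CTRL libraries together were set to a floor of 3 counts (adjusted p = 0.024), with nearly all counts in 2 of the 3 libraries. GBP2, an IFN-inducible GTPase, had 0.682, 0.381, and 0.907 CPM in CTRL and 3.25, 2.39, and 3.56 CPM in ADAR+hnRNPC-targeted cells. All 3 libraries with both gRNAs exceeded the highest CTRL library (log2 fold change 2.22, standard error 0.42, adjusted p = 7.8e-05). GBP1P1, a transcribed pseudogene of the related GBP1, had 0.0269, 0.0796, and 0 CPM in CTRL and 0.245, 0.288, and 0.108 CPM with both gRNAs. The groups did not overlap (log2 fold change 2.56, adjusted p = 0.0035), but GBP1P1 may share reads with GBP1. GBP1 itself had 0.0808, 0.0619, and 0.0792 CPM in CTRL and 0.0652, 0.04, and 0 CPM in ADAR+hnRNPC-targeted cells, and these groups overlapped (adjusted p = 0.37). The CXCL11 call was lost without ADAR+hnRNPC replicate 1 (adjusted p = 0.11) and without any 1 CTRL library (adjusted p from 0.060 to 0.065), as well as in a fit of the compared groups alone (adjusted p = 0.087). With the libraries of cells that received a GFP gRNA in place of CTRL, neither CXCL11 nor GBP1P1 passed (adjusted p = 0.23 and 0.50) and GBP2 had a log2 fold change of 1.61 (adjusted p = 0.0021), and without CTRL replicate 2 the log2 fold change of GBP1P1 was 3.90.

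Other genes of this top group have no textbook tie to IFN. S100A8 and S100A9 encode the subunits of calprotectin, a calcium-binding protein of myeloid cells. S100A8 had 9.14, 8.72, and 9.13 CPM in CTRL and 37, 25.6, and 42.8 CPM in ADAR+hnRNPC-targeted cells, while S100A9 had 20.9, 19.1, and 23.7 CPM and 89.7, 61.5, and 95.5 CPM. Both were several times higher in every library with both gRNAs, and replicate 2 was the lowest of these (log2 fold changes 1.96 and 1.95, adjusted p = 4.9e-07 and 6.7e-08). CHAC1, which degrades glutathione and is a target of the transcription factor ATF4, had 0.592, 0.832, and 1.03 CPM in CTRL and 3.44, 3.16, and 3.43 CPM with both gRNAs. The difference was larger than the spread of either group (log2 fold change 2.03, standard error 0.57, adjusted p = 0.0066), and against the GFP libraries the log2 fold change was 1.45 (adjusted p = 0.048). TLCD3B, ANKDD1A, and the lncRNAs CCNY-AS1 and WDR5B-DT were also among the 10 genes with the highest fold changes, with log2 fold changes from 2.01 to 2.16. Their values in hnRNPC-targeted cells lay in the range of those in ADAR+hnRNPC-targeted cells or close to it.

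The genes with the lowest fold changes encode enzymes and regulators of separate processes. PRMT3, a protein arginine methyltransferase, had 27, 28.8, and 28.5 CPM in CTRL and 7.04, 7, and 7.3 CPM in ADAR+hnRNPC-targeted cells. The libraries of each group were tightly grouped, and PRMT3 had the lowest fold change of all called genes (log2 fold change −1.98, standard error 0.08, adjusted p = 4.5e-21). TPP2, tripeptidyl peptidase II, had 270, 267, and 272 CPM in CTRL and 100, 95.9, and 97.4 CPM with both gRNAs. MNDA, a nuclear antigen of myeloid differentiation, had 187, 188, and 199 CPM against 68.5, 63.8, and 74.8 CPM. Neither gene's groups came near each other (log2 fold changes −1.46 and −1.47, adjusted p = 1.0e-22 and 1.0e-10). PECR, a peroxisomal enoyl-CoA reductase, the RecQ helicase WRN, CAB39L, CCDC113, and PIK3C3, the catalytic subunit of the class III phosphoinositide 3-kinase, had log2 fold changes from −1.58 to −1.29. XAGE1E had 3.74, 1.5, and 4.51 CPM in CTRL and 1.08, 0.841, and 0.945 CPM with both gRNAs, which did not overlap (log2 fold change −1.76, adjusted p = 0.032). XAGE1E belongs to a family of near-identical copies, and its count is uncertain for this reason. Its call was lost without CTRL replicate 1 or 3 or any 1 ADAR+hnRNPC library (adjusted p from 0.066 to 0.12), by limma-voom (adjusted p = 0.067), and against the GFP libraries (adjusted p = 0.22).

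**Figure D2:**
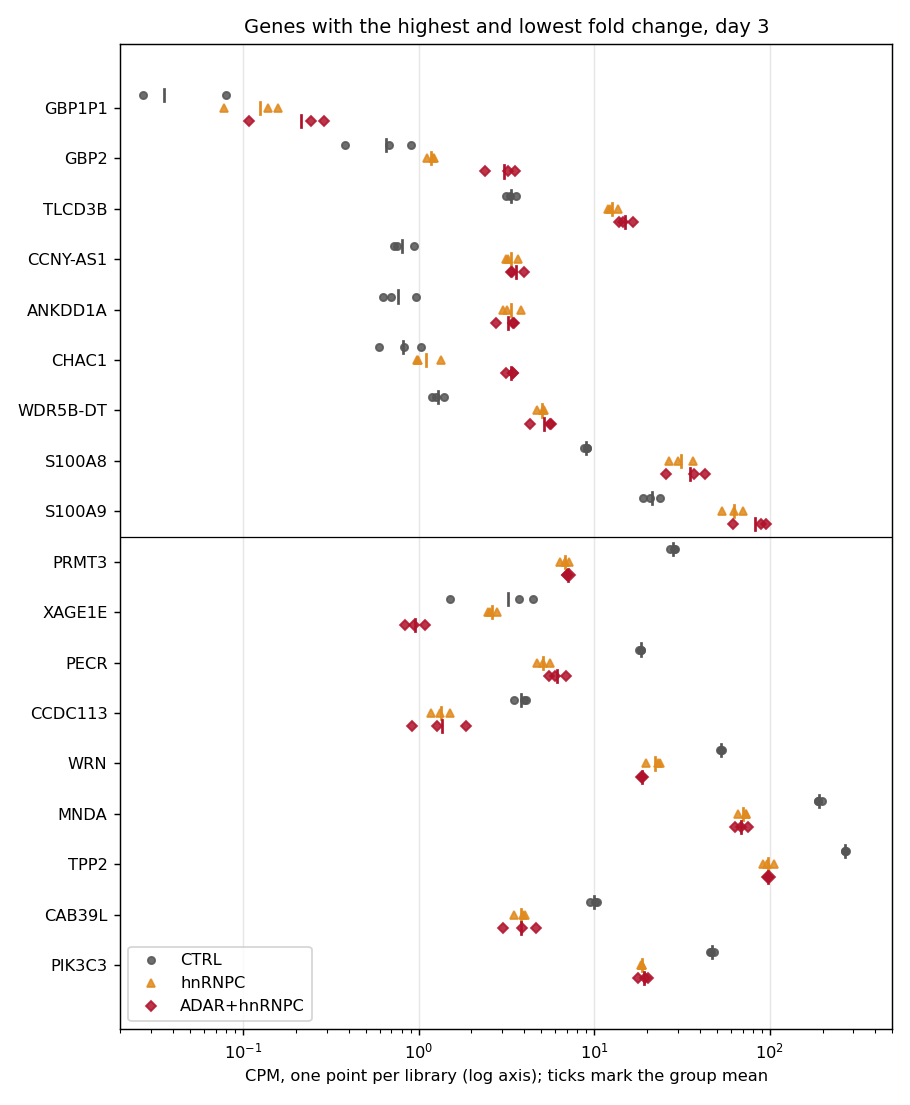
CPM per library (log axis) of the genes with the highest (above the line) and lowest (below the line) fold changes in ADAR+hnRNPC-targeted against CTRL cells of day 3; ticks are means of 3 libraries, 1 higher (CXCL11) and 1 lower gene are left out, and a CTRL library at 0 for GBP1P1 cannot be shown. For PRMT3, PECR, TPP2, and MNDA the hnRNPC libraries lie with the ADAR+hnRNPC libraries, while for GBP2 and CHAC1 they lie nearer to CTRL.

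Of 50 textbook IFN-stimulated effector genes, 4 were called higher (CXCL11, TRIM22, IFIT2, and OASL) and 0 lower, against 0.864% of all genes called higher. Without the 2-fold limit, 9 were higher and 3 lower, beside 12% and 16.7% of all genes. The median log2 fold change of the 50 was 0.13, also with CXCL11 at its bound. In 19 of the 50, all ADAR+hnRNPC libraries were above all CTRL libraries, where 19.7% of all genes were, and in 7 all were below, where 25.9% of all genes were. TRIM22, an antiviral ubiquitin ligase, had 2.03, 1.75, and 2.25 CPM in CTRL and 8.17, 5.82, and 5.61 CPM with both gRNAs. IFIT2, which binds viral RNA as part of IFIT complexes, had 1.2, 0.938, and 1.2 CPM in CTRL and 3.65, 2.54, and 3.34 CPM with both gRNAs. Both stood clear of CTRL in every library (log2 fold changes 1.70 and 1.51, adjusted p = 8.9e-09 and 1.7e-05). OASL, a relative of the oligoadenylate synthetases without their activity, had a log2 fold change of 1.15 (adjusted p = 0.02), but its call was lost without ADAR+hnRNPC replicate 3 or CTRL replicate 1 or 2 (adjusted p from 0.058 to 0.078) and by limma-voom (adjusted p = 0.11).

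Most of the canonical effectors did not pass the test on day 3. IFIT1 had 0.242, 0.203, and 0.458 CPM in CTRL and 0.359, 0.608, and 0.746 CPM in ADAR+hnRNPC-targeted cells, which overlapped (adjusted p = 0.19). ISG15 also overlapped, with 6.02, 7.27, and 6.8 CPM against 7.21, 8.04, and 8.16 CPM (log2 fold change 0.22, adjusted p = 0.4). CXCL10, a further CXCR3 ligand, had 5, 0, and 0 counts in CTRL and 17, 15, and 20 counts with both gRNAs. Its 3 treated libraries were above CTRL, but it missed the threshold (log2 fold change 3.17, adjusted p = 0.051). PARP12, HERC5, and IFITM2 were lower by less than 2-fold (log2 fold changes −0.47, −0.43, and −0.32, adjusted p = 0.0032, 0.048, and 0.015). IFNB1, the IFN-β gene, was under the limit for testing, with 0 counts in each CTRL library and 4, 1, and 4 counts in the ADAR+hnRNPC libraries, which is at least 2.75-fold higher against a floor of 3 counts over the CTRL group.

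The genes that added IFN-α had raised gave a second view of the onset. CTRL cells that had received IFN-α for 24 h had 159 called genes (1.21% of the genes tested) higher than untreated CTRL cells of day 4, a comparison that shares no library with day 3. Of these 159, 12 (7.55%) were called higher in ADAR+hnRNPC-targeted cells on day 3, against 0.864% of all genes tested, and 0 lower. These 159 had a median of 0.13 (log2 fold change) on day 3, and of 3.44 in ADAR+hnRNPC- against CTRL cells of day 5. The 12 genes were CXCL11, GBP1P1, GBP2, CDKN1A, C3AR1, TRIM22, IFIT2, IL4I1, TLR7, RASGRP3, OASL, and PTX3. Some could pass the limit on low counts through ADAR+hnRNPC libraries of later days, so the share of 7.55% may be in part built in. TLR7 and IL4I1 had means of 0.285 and 0.305 CPM in CTRL of day 3 and 0.927 and 1.28 CPM with IFN-α. In ADAR+hnRNPC-targeted cells of day 5 they had 19.2 and 56.1 CPM. Others were not so low, such as CDKN1A with a mean of 19.3 CPM in CTRL. C3AR1, the receptor of complement C3a, had 0.404, 0.283, and 0.352 CPM in CTRL and 0.921, 1.34, and 1.44 CPM with both gRNAs. TLR7, an endosomal sensor of single-stranded RNA, had 0.386, 0.257, and 0.211 CPM in CTRL and 1.1, 0.456, and 0.713 CPM with both gRNAs. Neither gene's groups overlapped, although the TLR7 libraries with both gRNAs differed among themselves by more than 2-fold (log2 fold changes 1.83 and 1.41, adjusted p = 0.011 and 0.0089). PTX3, a secreted pattern-recognition protein, and RASGRP3, a Ras exchange factor, were higher by log2 fold changes of 1.12 and 1.16 (adjusted p = 0.0048 and 4.8e-05). Single libraries decided some of these calls. TLR7 lost its call without ADAR+hnRNPC replicate 1 (adjusted p = 0.095) or CTRL replicate 3 (adjusted p = 0.053), and C3AR1 without CTRL replicate 2 (adjusted p = 0.050, just above the limit). PTX3 fell to log2 fold changes of 0.98 without ADAR+hnRNPC replicate 3 and 0.99 without CTRL replicate 2, and RASGRP3 to 0.97 without CTRL replicate 2. Against the GFP libraries C3AR1 and PTX3 had log2 fold changes of 0.73 and 0.97 and were not called.

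**Figure D3:**
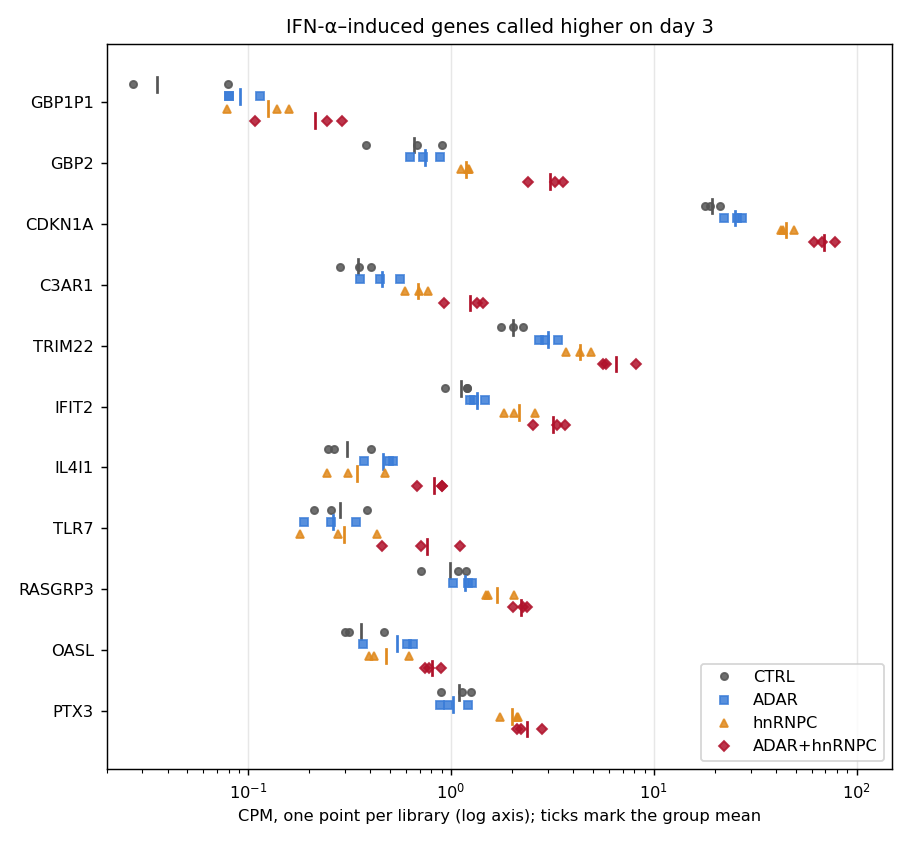
CPM per library (log axis) of 11 of the 12 IFN-α–induced genes called higher in ADAR+hnRNPC-targeted cells on day 3, in the 4 groups of that day; ticks are means of 3 libraries, CXCL11 is left out, and a CTRL library at 0 for GBP1P1 cannot be shown. All ADAR+hnRNPC libraries of these genes lie above all CTRL libraries, and at least 1 hnRNPC library of TLR7, IL4I1, OASL, and GBP1P1 lies within the range of CTRL.

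Of a list of 16 tested genes for RNA sensors and IFN signaling, which does not hold TLR7, 0 were called in either direction by edgeR, limma-voom, or DESeq2, beside 1.17% of all genes by edgeR, a share that leaves under 1 call in a list of this size. In it 6 had an unadjusted p under 0.05, and 2 were higher and 1 lower without the 2-fold limit, with a median log2 fold change of 0.12. IFIH1, which encodes MDA5, had 18.8, 19.2, and 20.2 CPM in CTRL and 22.7, 22.5, and 22.9 CPM with both gRNAs. These were apart by little (log2 fold change 0.23, adjusted p = 0.093). RIGI, the sensor of RNA with a 5′-triphosphate, had 13.7, 14.1, and 13.3 CPM against 14, 12.7, and 12.3 CPM, and its groups overlapped (adjusted p = 0.73).

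Targets of p53 moved in part. Of 25 tested p53 target genes, 3 were called higher and 0 lower, 14 were higher and 1 was lower without the 2-fold limit, and the median log2 fold change was 0.32. Of all genes tested, 0.864% were called higher, and 12% were higher and 16.7% lower without the limit. CDKN1A, the cyclin-dependent kinase inhibitor p21, had 18.9, 17.8, and 21.2 CPM in CTRL and 67.3, 61.5, and 78.1 CPM with both gRNAs. All libraries with both gRNAs were far above any CTRL library (log2 fold change 1.84, standard error 0.20, adjusted p = 4.2e-09). FAS, a death receptor, had 2.29, 2.32, and 1.95 CPM in CTRL and 6.66, 6.14, and 6.98 CPM with both gRNAs. FAS was well separated (log2 fold change 1.59, adjusted p = 3.0e-11), and ACTA2, which overlaps FAS on the opposite strand, was called higher too. The strand setting of the counting is not given in the sources used here, so reads of the pair may not be told apart. SPATA18, a p53 target that acts in mitochondrial quality control, had a log2 fold change of 1.16 (adjusted p = 0.00047), which came to 0.97 without ADAR+hnRNPC replicate 3 and to 0.86 without CTRL replicate 2. BAX and TNFRSF10B, which promote apoptosis, had log2 fold changes of −0.10 and −0.09 (adjusted p = 0.38 and 0.62), and MDM2, which degrades p53, had 0.32 (adjusted p = 0.0014).

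The integrated stress response, in which phosphorylated eIF2α favors translation of ATF4, was represented by 24 tested genes. Of these, 4 were called higher (CHAC1, INHBE, NUPR1, and ATF3) and 0 lower, 9 were higher without the 2-fold limit, beside 0.864% and 12% of all genes tested, and the median log2 fold change was 0.30. INHBE, an activin subunit, had 0.709, 0.69, and 0.81 CPM in CTRL and 2.39, 2.04, and 2.26 CPM with both gRNAs. NUPR1, a stress-induced chromatin protein, had 0.817, 0.965, and 1.63 CPM against 2.67, 3.1, and 3.32 CPM, and the transcription factor ATF3 had 1.4, 1.03, and 1.5 CPM against 3.1, 2.69, and 3.47 CPM. None of the 3 genes overlapped between the groups (log2 fold changes 1.60, 1.41, and 1.24, adjusted p = 0.0091, 0.02, and 0.00036), but NUPR1 lost its call without CTRL replicate 1 or 2 (adjusted p = 0.090 and 0.076). ATF4 mRNA, with 273, 267, and 268 CPM against 318, 307, and 315 CPM, was above CTRL in every library without passing the test (log2 fold change 0.22, adjusted p = 0.25). The amino acid genes ASNS, PSAT1, and SLC7A5 had log2 fold changes of 0.28, 0.07, and 0.02 (adjusted p = 0.46, 0.83, and 0.96).

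NF-κB feedback genes and cytokines were higher by small amounts where they passed the test. Of 12 tested genes, 1 was called higher and 0 lower, 6 were higher without the 2-fold limit, beside 0.864% and 12% of all genes tested, and the median log2 fold change was 0.43. IL1B, the cytokine IL-1β, had 0.386, 0.363, and 0.387 CPM in CTRL and 1.19, 0.632, and 0.697 CPM with both gRNAs. The lowest treated library was well above the highest CTRL library (log2 fold change 1.15, adjusted p = 0.0074), but the call was lost without ADAR+hnRNPC replicate 1 (log2 fold change 0.81) and against the GFP libraries (0.74). TNFAIP3, the feedback inhibitor A20, had 6.96, 6.54, and 6.68 CPM in CTRL and 13.8, 11.3, and 11.5 CPM with both gRNAs. Its groups did not overlap, and its fold change was just under the limit (log2 fold change 0.86, adjusted p = 3.8e-05), as were those of ICAM1 (0.93, adjusted p = 0.012) and BIRC3 (0.72, adjusted p = 0.00061). NFKBIA, which encodes IκBα, and CXCL8 had log2 fold changes of 0.23 and 0.12 (adjusted p = 0.21 and 0.71).

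Further lists are given beside all genes tested, of which 1.17% were called and, without the 2-fold limit, 12% were higher and 16.7% lower. Of 27 RNA-binding proteins at 3′ splice sites and hnRNPs, 0 were called by edgeR, 12 had an unadjusted p under 0.05, and 2 were higher and 8 lower without the 2-fold limit. The branch point–binding protein SF1 had the lowest value of these (log2 fold change −0.46, adjusted p = 2.6e-08), and RALY, a relative of hnRNPC, had 0.15 (adjusted p = 0.044). Of 13 factors of nonsense-mediated decay, 0 were called by edgeR, 3 had an unadjusted p under 0.05, and 1 was higher and 2 lower without the limit. Of 21 proliferation genes, 0 were called by edgeR, 9 had an unadjusted p under 0.05, and 4 were higher and 3 lower without the limit. By limma-voom and DESeq2, 0 genes of these 3 lists were called. The helicase subunit MCM3 was the exception in size, with 805, 808, and 818 CPM in CTRL and 488, 464, and 456 CPM with both gRNAs. The groups were well apart (log2 fold change −0.79, adjusted p = 5.7e-16), while MCM2, MCM6, and MCM7 of the same complex had 0.09, 0.08, and 0.20 (adjusted p = 0.36, 0.42, and 0.0051). Of the myeloid regulators, MYC and IRF8 were lower by log2 fold changes of −0.43 and −0.26 (adjusted p = 1.3e-05 and 0.0022).

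The study also measured MFSD1, IARS2, EIF3D, and NUCKS1 by qPCR, and chose them because their RNA-seq expression was lower in hnRNPC deficiency, so their count is no independent evidence of direction. All 4 were below CTRL in all libraries, where 25.9% of all genes tested were, and 2 were called lower, beside 0.303% of all genes tested. MFSD1, a lysosomal transporter, had 556, 554, and 586 CPM in CTRL and 268, 254, and 259 CPM with both gRNAs. IARS2, the mitochondrial isoleucyl-tRNA synthetase, had 390, 401, and 420 CPM against 184, 174, and 192 CPM. The levels with both gRNAs were far below those of CTRL (log2 fold changes −1.12 and −1.14, adjusted p = 2.1e-19 and 3.9e-17). EIF3D, a subunit of translation initiation factor eIF3, and NUCKS1, a chromatin protein, had log2 fold changes of −0.89 and −0.88 (adjusted p = 5.6e-17 and 1.0e-10).

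The contrast with hnRNPC-targeted cells asked what the ADAR gRNA added on day 3. In this comparison edgeR called 11 genes (0.0834%) higher and 0 lower, and 1002 were higher and 106 lower without the 2-fold limit. At an unadjusted p under 0.05, 834 genes were lower, and limma-voom called 2 and DESeq2 1 lower. Only 4, 5, and 6 genes were called higher without hnRNPC replicate 1, hnRNPC replicate 2, and ADAR+hnRNPC replicate 3. H2AC25, a histone H2A gene, had 23, 22.2, and 25.7 CPM with both gRNAs and 5.8, 5.86, and 7.35 CPM with the hnRNPC gRNA alone. It was well separated (log2 fold change 1.90, standard error 0.25, adjusted p = 2.9e-05), but CTRL cells had 11.7, 16.9, and 16.2 CPM, between both. With the hnRNPC gRNA alone it was lower than in CTRL (log2 fold change −1.24, adjusted p = 0.00017). ADAR-targeted cells had 28.6, 22.8, and 24.7 CPM, near the level with both gRNAs (log2 fold change of both over ADAR −0.10, adjusted p = 0.79). H1-6, the testis-specific linker histone, had 8.82, 6.48, and 6.98 CPM with both gRNAs, 2.48, 2.4, and 2.7 CPM with the hnRNPC gRNA alone, and 2.22, 2.61, and 2.97 CPM in CTRL. Here the doubly targeted cells stood apart from both other groups (log2 fold change over hnRNPC 1.55, standard error 0.16, adjusted p = 2.1e-07). GBP2 had 1.22, 1.21, and 1.12 CPM with the hnRNPC gRNA alone, all under the ADAR+hnRNPC libraries (log2 fold change 1.37, standard error 0.39, adjusted p = 0.026). IL4I1, a secreted amino acid oxidase, had 0.897, 0.904, and 0.68 CPM with both gRNAs and 0.245, 0.47, and 0.309 CPM with the hnRNPC gRNA alone, without overlap (log2 fold change 1.27, adjusted p = 0.011).

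TLR7 (1.35, adjusted p = 0.034), ICAM1, an adhesion molecule induced by NF-κB (1.24, adjusted p = 0.0096), SLC2A6 (1.05, adjusted p = 0.0031), and TNFRSF10C, a decoy receptor of TRAIL (1.01, adjusted p = 0.0035), were also higher than in hnRNPC-targeted cells. The other calls were the GTPase GEM (1.06, adjusted p = 0.035), the endothelial adhesion molecule ESAM (1.02, adjusted p = 0.012), and the GPX1 pseudogene GPX1P1 (1.45, adjusted p = 0.012), whose reads may be shared with GPX1. Over CTRL, GEM and GPX1P1 had log2 fold changes of 0.73 and 0.38, with overlapping libraries (adjusted p = 0.082 and 0.45). GPX1P1 was lower with the hnRNPC gRNA alone than in CTRL (−1.075, adjusted p = 0.013). ESAM rested on 3.46, 2.1, and 1.28 CPM with both gRNAs against 1.32, 0.898, and 1.15 CPM, which overlapped. The median log2 fold change over hnRNPC-targeted cells was 0.13 for the 159 IFN-α–induced genes, 0.32 for the NF-κB list, 0.30 for the stress response list, and 0.19 for the p53 list, beside 0.02 for all genes tested. Monocyte markers had a median of 0.35 in this comparison. Of 10 tested, 4 (CSF1R, ITGAM, SPI1, and MPO) were higher without the 2-fold limit, beside 1002 of all 13193 genes tested. The 3 tested B cell markers had a median of 0.33. Both medians are as large as those of the lists above, and the part of the markers in them was not tested. H2AC25 and H1-6 kept their calls whichever library was left out, while each of the other 9 lost its call without at least 1 library. GBP2 did so without ADAR+hnRNPC replicate 1 or 3 or any 1 hnRNPC library (adjusted p from 0.052 to 0.13), TLR7 without ADAR+hnRNPC replicate 1 or 3 or hnRNPC replicate 1 or 2 (adjusted p from 0.10 to 0.17), and GEM without ADAR+hnRNPC replicate 3 or any 1 hnRNPC library (adjusted p from 0.086 to 0.31). For GPX1P1 this happened without ADAR+hnRNPC replicate 3 or hnRNPC replicate 1 or 2 (adjusted p from 0.067 to 0.094), for ICAM1 without hnRNPC replicate 1 or 2 (adjusted p = 0.070 and 0.060), and for IL4I1 without hnRNPC replicate 1 (adjusted p = 0.078). ESAM (log2 fold change 0.59 and 0.88 without ADAR+hnRNPC replicate 1 and hnRNPC replicate 2), SLC2A6 (0.89 and 0.97 without ADAR+hnRNPC replicate 3 and hnRNPC replicate 2), and TNFRSF10C (0.88 and 0.99 without ADAR+hnRNPC replicate 3 and hnRNPC replicate 1) went under the 2-fold limit.

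Against ADAR-targeted cells, 77 genes were higher (0.584% of the genes tested) and 43 lower (0.326%). By fold change, CXCL11, ANKDD1A, TLCD3B, GBP2, and ZNF788P led the higher genes, with log2 fold changes over ADAR-targeted cells of 2.10 for ANKDD1A, 2.05 for TLCD3B, 2.04 for GBP2, and 1.95 for ZNF788P. CXCL11 had 0.00949, 0, and 0 CPM in ADAR-targeted cells, and its call was lost without ADAR+hnRNPC replicate 1 or 2 or any 1 ADAR library (adjusted p from 0.074 to 0.21). XAGE1E (−2.12), MED22 (−2.02), PRMT3 (−1.87), and PECR (−1.49) were among the 5 with the lowest values. MED22, a Mediator subunit, had 1.18, 2.63, and 2.78 CPM in ADAR-targeted and 0.546, 0.568, and 0.514 CPM in ADAR+hnRNPC-targeted cells. It was spread in the other groups too, with 1.09, 0.885, and 2.76 CPM in CTRL, and lost its call without any 1 ADAR+hnRNPC library and without ADAR replicate 2 or 3 (adjusted p from 0.055 to 0.066).

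Whether the joint effect exceeded the sum of the single ones was tested as an interaction. No gene passed: 0 of 13193 by edgeR, with 883 at an unadjusted p under 0.05, and 0 by limma-voom and 2 by DESeq2. The comparisons share the CTRL libraries, so values are given side by side. For the 114 raised genes, which were chosen by the first value, the median log2 fold change over CTRL was 1.21 with both gRNAs, 1.02 with the hnRNPC gRNA alone, and 0.19 with the ADAR gRNA alone. For the 40 lowered genes these medians were −1.16, −1.10, and −0.05. For the 159 IFN-α–induced genes they were 0.13, −0.001, and 0.04. CHAC1 had 2.03, 0.44, and 0.93, GBP2 2.22, 0.85, and 0.19, CDKN1A 1.84, 1.22, and 0.38, and TRIM22 1.70, 1.10, and 0.58 in the same order. PRMT3 had −1.98, −2.04, and −0.11.

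Days 4 and 5 had their own CTRL libraries and showed which changes of day 3 lasted. The limit on low counts averaged over libraries of these days too. A gene low on day 3, such as CXCL11, could be tested because it was high later. The shares of raised genes called on these days are thus in part built in. Of the 114 raised genes, 98 (86.0%) were called higher in ADAR+hnRNPC- against CTRL cells on day 4, where 3.42% of all genes were, and 90 (78.9%) on day 5, where 9.41% of all genes were. Those 98 and 90 genes were 21.7% and 7.25% of all genes called higher on these days. Of the 40 lowered genes, 28 (70.0%) were called lower on day 4 and 21 (52.5%) on day 5, beside 1.29% and 6.22% of all genes. All 114 kept a positive sign on day 4 and 110 on day 5, and 40 and 39 of the lowered genes a negative one. The response differed between day 5 and day 3 for 1347 genes (10.2%) by a test of the difference itself, with 950 (7.2%) more positive and 397 (3.01%) more negative on day 5.

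Values of the lists on each day are given without a test between lists, beside 0.864, 3.42, and 9.41% of all genes called higher on days 3, 4, and 5. The tested members passed the same limit on low counts, which a gene could meet through the later days. The 50 IFN effectors had median log2 fold changes of 0.13 on day 3, 1.40 on day 4, and 5.01 on day 5, and 4, 33, and 49 were called higher. NF-κB genes had medians of 0.43, 1.64, and 3.08 with 1, 9, and 11 of 12 called higher, and stress response genes 0.30, 0.97, and 1.5 with 4, 12, and 14 of 24. The p53 targets had medians of 0.32, 0.49, and 0.70 with 3, 8, and 10 of 25 called higher. IFIT1, not called on day 3, reached a log2 fold change of 5.33 on day 4 (adjusted p = 5.2e-16) and of 10.2 on day 5 (adjusted p = 7.4e-24). ADAR mRNA, which is itself IFN inducible, went from −0.25 on day 3 to 1.75 on day 5 (adjusted p = 1.4e-20).

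**Figure D4:**
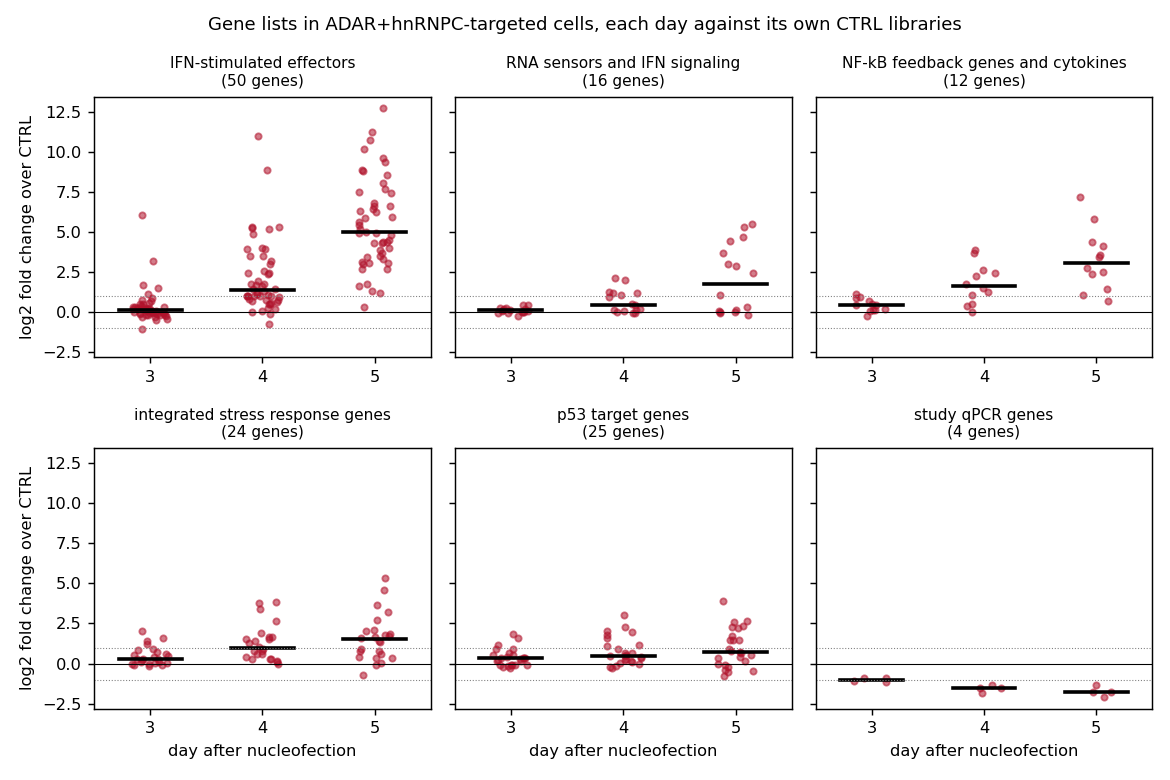
Log2 fold change of ADAR+hnRNPC-targeted over CTRL cells on days 3, 4, and 5 for the tested genes of 6 lists; each point is a gene, black bars are medians, and dotted lines mark a 2-fold change. The median of the 50 IFN effectors goes from 0.13 on day 3 to 5.01 on day 5, while that of the 25 p53 targets goes from 0.32 to 0.70.

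A few strong changes of day 3 faded. S100A8 and S100A9 had log2 fold changes of 1.77 and 1.76 on day 4 but 0.10 and 0.37 on day 5, and the difference between day 5 and day 3 passed the test (−1.86 and −1.58, adjusted p = 6.6e-05 and 0.00013). PECR went from −1.58 to −0.42 and then 0.38, a difference of 1.96 (adjusted p = 1.5e-15), and TPP2 from −1.46 to −1.13 and then −0.38, a difference of 1.08 (adjusted p = 3.0e-15). Among the 114 raised genes 43 had a more positive and 7 a more negative response on day 5, and among the 40 lowered genes 4 a more positive and 0 a more negative one.

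Of 197626 deposited introns, 21798 reached the minimum average log2 CPM of 1, over the same 48 libraries, and were tested. ADAR+hnRNPC targeting raised 366 introns and lowered 35 (1.84%, or 1.68% higher and 0.161% lower) on day 3. Of the raised introns, 343 lay in exactly 1 tested host gene, and these lay in 319 genes, of which 21 had 2 or more. TRPM7, MDM2, and CCDC18 had 3 each. The median log2 fold change of the 343 introns was 1.30, while the median of their host genes was 0.003. Among the 343, 9 (2.62%) had a host called higher and 4 (1.17%) a host called lower, beside 0.0787% and 0.487% of all 20330 introns with 1 host gene. Thus 9 of the 16 introns with a host called higher were raised themselves. As a measure that removes the host, the log2 ratio of intron to host gene was tested with limma and Benjamini-Hochberg adjustment over 20330 introns, and 472 were higher and 15 lower (2.32% and 0.0738%). The 15 lower ones became 30 without ADAR+hnRNPC replicate 2, 26 without CTRL replicate 3, and 10 without ADAR+hnRNPC replicate 3.

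The raised introns differed from the rest in sequence. Runs of at least 9 T on the transcribed strand, the letters a uridine tract would have in the transcript, were present in 313 of the 343 (91.2%) and in 66.8% of all 20330 introns. Runs of at least 9 A on the same strand were present in 59.2% and 59.5%. The median length was 4975 bases against 4633. Per 10 kb, the raised introns had 5.41 T runs and 2.22 A runs, against 3.57 and 2.30 in all. A match is a description of the sequence and no binding site. Regions rich in editing clusters were taken as deposited by the authors. These regions overlapped 62 of the 343 (18.1%) and 8.09% of all introns. The study searched for editing clusters in all samples, and a site needed a minimum of reads in every replicate of some treatment. An intron raised with the hnRNPC gRNA could meet this minimum through the libraries in which it was raised. The higher share may thus be in part built in, and how much of it is was not tested. Of the 33 lowered introns with 1 host gene, 39.4% held a T run, but these introns were shorter (median of 1647 bases), and per 10 kb they had 4.99 T runs, which is also above the 3.57 of all introns.

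Stretches of 30 bases around a T run are shown for the 9 of the 10 introns with the highest fold changes that hold such a run, in order of fold change, with the run in capitals, 5′ to 3′ on the transcribed strand of GRCh37.
GMPS, chr3:155622075-155622104 (+): ttctttttcTTTTTTTTTTTTcgagacgga
SRP68, chr17:74042542-74042571 (-): tttttgTTTTTTTTTTTTTTTTTTTccact
ACTR3, chr2:114686272-114686301 (+): tccaataaaTTTTTTTTTTTTaccaaaaca
NUP133, chr1:229601634-229601663 (-): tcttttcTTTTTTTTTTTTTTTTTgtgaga
CCDC18, chr1:93681005-93681034 (+): tctttttcTTTTTTTTTTTTTTTcttagag
KDM3B, chr5:137709109-137709138 (+): aacctttaaagTTTTTTTTTcaattatgga
TRGC1, chr7:38301465-38301494 (-): tcttttcTTTTTTTTTTTTTTTTggacaga
NCOA3, chr20:46259198-46259227 (+): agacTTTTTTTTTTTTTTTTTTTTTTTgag
ZNF367, chr9:99153164-99153193 (-): tgtcTTTTTTTTTTTTTTTTTTTTTTTcga
The longest run of these introns is 9 to 23 T, and the remaining intron, in SAV1, holds none.

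The introns of GMPS and NUP133 rose while their host genes were lower. The GMPS intron (chr3:155621750-155623948, 2199 bases) had 1.12, 1.45, and 1.21 CPM in CTRL and 16.2, 17.1, and 14 CPM with both gRNAs. It was many times as high in every treated library (log2 fold change 3.65, standard error 0.20, adjusted p = 1.8e-16). The exons of GMPS, which makes guanosine monophosphate, were lower by less than 2-fold (log2 fold change −0.81, adjusted p = 1.7e-13), so the ratio of intron to host rose by 4.45 on the log2 scale. The NUP133 intron (chr1:229601267-229602380, 1114 bases) had 1.68, 1.77, and 1.31 CPM in CTRL and 16.8, 16, and 11.9 CPM with both gRNAs. The increase was again far larger than the spread (log2 fold change 3.23, adjusted p = 2.2e-14), and NUP133, a nuclear pore subunit, was lower at the gene level by less than 2-fold (−0.93, adjusted p = 3.0e-15).

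Introns of SRP68, ACTR3, CCDC18, KDM3B, TRGC1, NCOA3, and ZNF367 followed with log2 fold changes from 3.03 to 3.37. Their hosts differed in direction at the gene level, from −0.47 for the histone demethylase KDM3B to 0.48 for the zinc-finger factor ZNF367 (adjusted p = 1.1e-07 and 3.0e-11). The introns of KDM3B and ZNF367 were the 2 of the 10 that overlapped a region rich in editing clusters. The highest fold change of all was that of a SAV1 intron (chr14:51102103-51107467), which had 0.485, 0.628, and 0.379 CPM in CTRL and 23.4, 33.7, and 8.62 CPM with both gRNAs. It was high in all treated libraries (log2 fold change 5.46, standard error 1.37, adjusted p = 0.0073), but hnRNPC-targeted cells had 0.671, 0.641, and 8.86 CPM, the intron held no run of 9 T, and the fold change was −1.56 on day 5 (adjusted p = 0.3). One hnRNPC library was thus as high as the lowest ADAR+hnRNPC library, and the call over CTRL was lost without CTRL replicate 3 (adjusted p = 0.054) and by limma-voom (adjusted p = 0.12). Against the GFP libraries its log2 fold change was 4.10 (adjusted p = 0.034).

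Among lowered introns the host gene was often lower as well. The median host log2 fold change of the 33 was −0.69, 12 of the 33 (36.4%) had a host called lower, and 5 (15.2%) had a lower ratio of intron to host, beside 0.487% and 0.0738% of all introns with 1 host gene. The HNRNPC intron (chr14:21698526-21699155) had a log2 fold change of −1.58 and its host −1.25, and the TPP2 intron −1.38 and its host −1.46. An intron of CCNG2, an atypical cyclin, fell further than its host (host log2 fold change −0.23, adjusted p = 0.039), with 2.58, 3.32, and 3.16 CPM in CTRL and 1.22, 1.05, and 1.15 CPM with both gRNAs. It was lower without overlap (log2 fold change −1.40, adjusted p = 1.7e-06), and its ratio to the host fell by 1.15 on the log2 scale (limma adjusted p = 1.3e-05).

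Of the 24 lowered genes with a tested intron, 4 (16.7%) also had a raised intron, beside 319 of 6929 (4.60%) of all genes with a tested intron. Of the 14 raised genes with a tested intron, 9 had a raised intron. Against hnRNPC-targeted cells, 0 of 21798 introns were called by edgeR, 2 passed without the 2-fold limit, 1594 had an unadjusted p under 0.05, and limma-voom called 0 and DESeq2 called 1 higher and 1 lower. The median log2 fold change of all introns in that comparison was −0.16, or −0.05 with intron totals as library sizes. The 343 introns, chosen by their change over CTRL, had a median log2 fold change over CTRL of 1.51 with the hnRNPC gRNA alone. In ADAR+hnRNPC-targeted cells of the later days, against their own CTRL libraries, 329 of the 343 were called higher on day 4 and 278 on day 5, which is 95.9% and 81.0%, with medians of 1.62 and 1.48, where 3.57% and 5.49% of all introns were. An intron low in CTRL could pass the limit on low counts through treated libraries of these days, so the shares of the raised introns are in part built in. Of the 33 lowered introns, 31 and 29 were called lower on days 4 and 5, beside 0.711% and 8.03% of all.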

How the data were processed

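The authors aligned reads with STAR 2.5.4a to GRCh37 and deposited raw counts, without normalization or pooling: uniquely mapped reads on the exons of each GENCODE gene, on introns (gene intervals without merged APPRIS exons), and, per editing site, edited and total reads. The strand setting of the counting is not given in the sources used here. Here, 1 edgeR model held all 48 whole-cell libraries of the first RNA-seq experiment, each group having its own coefficient (edgeR 4.0.16 in R 4.3.3, quasi-likelihood test, Benjamini-Hochberg adjustment), with gene count totals times TMM factors as library sizes for genes and introns. The study tested with limma after voom, at the thresholds kept here. The ratio of intron to host gene was tested with limma 3.58.1 on log2 CPM with a prior count of 2. Editing sites with fewer than 10 reads in any of 12 libraries were left out. Intron positions were read as 1-based. Gene names came from a GENCODE annotation lifted to GRCh37 that is newer than the authors' (55538 of 57820 identifiers matched).

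Named genes and introns were the 10 highest and 10 lowest called genes with separate libraries, the 5 highest and lowest calls over singly targeted cells, the called IFN-α–induced genes, the 10 highest and 5 lowest introns, and the gene lists. Members and lists were chosen with earlier results of these data known. Genes named outside this rule (ACTA2 and the calls over hnRNPC-targeted cells after the fifth) were chosen after their values were seen. On simulated counts with the groups of this comparison, 97% of 100 genes with a true absolute log2 fold change of 1.5 and 95% of 100 such introns were called. By the ratio of intron to host gene, 89% of 100 were called. The changed features were drawn at random from all those tested, at their mean level over all 48 libraries. These shares therefore do not measure recovery of genes as low in CTRL as most raised genes were. Deviations of same-numbered CTRL and ADAR+hnRNPC libraries from their group means correlated over genes at 0.455, 0.52, and 0.748, while those with hnRNPC- and ADAR-targeted cells did not all exceed 0.1. CTRL replicate 1 with ADAR+hnRNPC replicate 2 came to 0.378, and CTRL replicate 2 with ADAR+hnRNPC replicate 1 to 0.316. Replicate 3 thus stood apart, while whether numbers pair replicates 1 and 2 was not settled. No library was left out, and 0 columns were without a sample. Results for some genes of the named sets are not reported here.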

Additional observations from a re-analysis of the deposited data

Results flagged for a closer look

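The response of ADAR+hnRNPC-targeted cells differed between days by a test of the difference itself, each day against its own CTRL libraries (edgeR). The log2 fold change was higher on day 5 than on day 3 for 950 genes and lower for 397. Among genes called on day 3, the sign of the difference ran against the change of day 3 for both calprotectin subunits (−1.86 for S100A8 and −1.58 for S100A9) and for PECR and TPP2 (1.96 and 1.08), so that their fold changes were nearer to 0 on day 5. IFNB1 fell below the limit on low counts and entered no comparison, and its 9 counts over the 3 ADAR+hnRNPC libraries of day 3, against 0 in the 3 CTRL libraries, are noted as signal outside the tests.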

How the results depend on the processing

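Over CTRL on day 3, limma-voom, DESeq2, RLE size factors, a fit of the compared groups alone, and GFP control libraries called 99 to 129 genes higher and 34 to 45 lower. Without a limit on low counts, 491 were higher and 96 lower. Without that limit there were also 55 higher and 144 lower against hnRNPC-targeted cells, 376 and 123 against ADAR-targeted cells, 287 in the interaction, 1902 and 713 between days, 1057 and 204 among introns, and 11 and 6 introns against hnRNPC-targeted cells. With a minimum average log2 CPM of 0, 581 introns were higher and 73 lower, and with 2, the intron-to-host ratio was higher in 225 and lower in 7. The cause was not tested, beyond the number of features that each limit lets in. Against hnRNPC-targeted cells, limma-voom called 7 genes higher and 2 lower, and DESeq2 and a fit of the compared groups alone called 1 lower. The interaction had 2 calls by DESeq2 and 1 with RLE size factors, and introns against hnRNPC-targeted cells had 1 call higher and 1 lower by DESeq2. TMM factors from the tested genes only, chosen after seeing the data, gave 125 higher and 36 lower. The replicate block gave 116 higher and 40 lower genes and changed no call named for the comparison with CTRL. The fit as reported held no replicate term. Same-numbered deviations correlated at 0.277, 0.0799, and 0.333 with hnRNPC-targeted cells and at 0.0492, 0.254, and 0.387 with ADAR-targeted cells. All were positive but weaker than those with CTRL, so whether numbers pair these samples was not settled. There the block gave 14 higher and 1 lower against hnRNPC-targeted cells, 2 interactions, and 0.9998 for TNFRSF10C. Leaving out 1 library gave 108 to 119 higher and 40 to 51 lower genes over CTRL, 4 to 13 higher and 0 to 1 lower against hnRNPC-targeted cells, 0 to 1 interactions, 306 to 447 higher introns, and 10 to 30 lower ratios. The editing difference was −2.86 points with at least 20 reads and −1.83 points as a mean of site levels (exact permutation p = 0.1 for both), and −2.40 to −2.09 points without 1 library. Calls against hnRNPC-targeted cells that other methods did not make were TLR7, GEM, ESAM, and TNFRSF10C by limma-voom, TLR7, GEM, and ESAM in the fit of the compared groups, ESAM by DESeq2, TNFRSF10C with RLE size factors, and both with TMM factors from tested genes. The depth of 3 libraries per group limits genes near 0 counts, such as CXCL11 and IFNB1.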
